A study of Mus musculus with 8 samples.

Results

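The genes of heme synthesis and breakdown were followed in fasted mouse liver: Alas1, Alad, Uros, Urod, Cpox, Ppox and Fech for synthesis, and Hmox1 and Blvrb for breakdown. These 9 genes were taken by name from the 34547 genes in the data, and all 9 had enough reads to be tested. Heme is built in a chain of enzyme steps that starts and ends in the mitochondrion. Alas1 makes 5-aminolevulinate and is the rate-limiting step in liver, where it is known to be induced by fasting and repressed by heme. Alad, Uros and Urod act in the cytosol, Cpox and Ppox at the mitochondrion, and Fech inserts iron. In breakdown, Hmox1 opens the heme ring to biliverdin, and Blvrb is a NADPH-dependent flavin and biliverdin reductase. In GRCm38 the genes lie at chr9:106233455-106248654 (Alas1), chr4:62509169-62519918 (Alad), chr7:133686243-133710072 (Uros), chr4:116989965-116994413 (Urod), chr16:58670292-58717636 (Cpox), chr1:171275990-171281186 (Ppox), chr18:64452914-64490251 (Fech), chr8:75093621-75100589 (Hmox1) and chr7:27447978-27466144 (Blvrb). Cpox, Hmox1 and Blvrb are on the plus strand and the others on the minus strand.

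Liver RNA came from 4 C57BL/6J mice given an adeno-associated viral vector with the mouse Nudt7 gene, and from 4 C57BL/6J mice given the same kind of vector with GFP. Nudt7 is a peroxisomal hydrolase of coenzyme A and acyl-CoAs, and GFP is a fluorescent protein used as the control. All 8 mice were injected by tail vein at 8 weeks of age with 2.5e+11 particles, and all were fasted for 24 h before the liver was taken 3 to 4 weeks later, at 11 to 12 weeks. The labels name neither the promoter that drove the transgenes nor the sex of the mice. All groups used here were fasted, so a fast was not compared with feeding.

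The libraries held 11187806 to 23640734 estimated reads. Nudt7 stood at 1301, 1599, 3569 and 1555 CPM (read counts on a common library size, scaled by TMM) in Nudt7 livers 1 to 4, against 60.7 to 79.9 CPM in GFP livers. The library of Nudt7 replicate 3 differed from the other 7: its score on the leading principal component (38.0% of the variance) was 56.3, and theirs were −17.9 to 0.599. In that liver, genes with short transcripts (the shortest of 3 length classes, up to 1866 bases) lay a median of 0.42 log2 units above the mean of the other 3 Nudt7 livers, and genes with long transcripts lay at −0.34. Hepatocyte markers were abundant in every liver, with summed levels of 59436 to 89838 CPM in Nudt7 livers and 72524 to 93083 CPM in GFP livers. In bulk liver, fewer cells of a type and less RNA per cell cannot be told apart.

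By length-normalised level, Alas1 was the most abundant of the 9 genes in all 8 livers. Its TPM (abundance corrected for transcript length, summed over the transcripts of the gene) was 551, 863, 454 and 635 in Nudt7 livers and 496, 474, 490 and 471 in GFP livers. These are levels after a 24 h fast, and they placed Alas1 at the 99.2nd percentile of the 22828 genes with a TPM above 0. Cpox, which oxidises coproporphyrinogen, came next at 135 ± 15.4 TPM with Nudt7 and 115 ± 17.4 TPM with GFP (SD, n = 4 livers each). The ratio of Alas1 to Cpox was 4.63 ± 1.16 with Nudt7 and 4.24 ± 0.50 with GFP (SD, n = 4 livers each). Over all 8 livers this ratio averaged 4.44, and in CPM, which is not divided by length, it was 2.04. A 460-base model holds 38.1% of the Alas1 TPM. Every Alas1 value lay above every Cpox value.

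Blvrb followed, at 120 ± 35.6 TPM with Nudt7 and 83.8 ± 15.1 TPM with GFP (SD, n = 4 livers each), and its values overlapped those of Cpox but not those of Alad. Alad, Fech and Urod formed a middle band with means over the 8 livers of 51.4, 50.9 and 46.5 TPM, and these neighbours did not differ beyond their spread. Hmox1 (10.6 to 24.1 TPM) and Uros (14.1 to 20.3 TPM) also overlapped each other. Ppox, which makes protoporphyrin IX, had the lowest mean, with 10.6 ± 1.11 TPM with Nudt7 and 9.82 ± 0.743 TPM with GFP (SD, n = 4 livers each). It lay below Uros in all 8 livers, but in Nudt7 replicate 4 Hmox1 (10.6 TPM) lay just below Ppox (10.95 TPM).

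**Figure D1:**
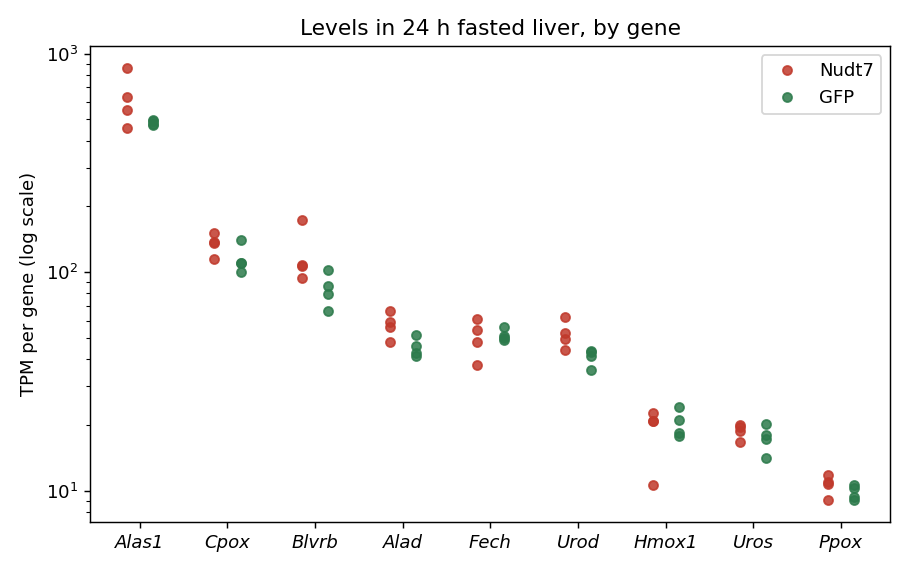
TPM per gene (log scale) of the 9 heme pathway genes in each of 4 Nudt7 livers (red, left) and 4 GFP livers (green, right), ordered by the mean over all 8. Alas1 lies above every other gene in all 8 livers, and Alad, Fech and Urod share a band between 35.7 and 66.2 TPM.

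Between the groups, 9 of 9 genes had positive log2 fold changes (Nudt7 over GFP) and a median of 0.37, beside 49.8% positive and a median of −0.00089 over the 13678 genes tested. In edgeR (quasi-likelihood test, with Benjamini-Hochberg adjustment across the whole table) 0 of the 9 had an adjusted p below 0.05, where 0.117% of all genes did, 0.0439% higher and 0.0731% lower. At an unadjusted p under 0.05 there were 4 of the 9 (Alas1, Alad, Cpox and Blvrb), all positive, where 4.25% of all genes were higher at that p and 8.28% were called in either direction. For 3 of the 9 (Alas1, Alad and Blvrb) each Nudt7 liver was above each GFP liver in CPM, where 2.74% of all genes did so and 5.75% were apart in either direction. DESeq2 called 1 of the 9, Alas1, where it called 1.18% of all genes. The limma-voom fit called 0 of the 9, and with sample weights it called 0, where 0.753% of all genes were called. Without Nudt7 replicate 3 the median was 0.16, and edgeR again called 0. Ppox (−0.0087) and Hmox1 (−0.20) were then negative, and the others stayed positive. With all livers, genes of the short length class had a median log2 fold change of 0.13. That class holds Alas1, Alad, Uros, Urod, Hmox1 and Blvrb. The middle class, with Cpox, Ppox and Fech, had a median of −0.0070.

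**Figure D2:**
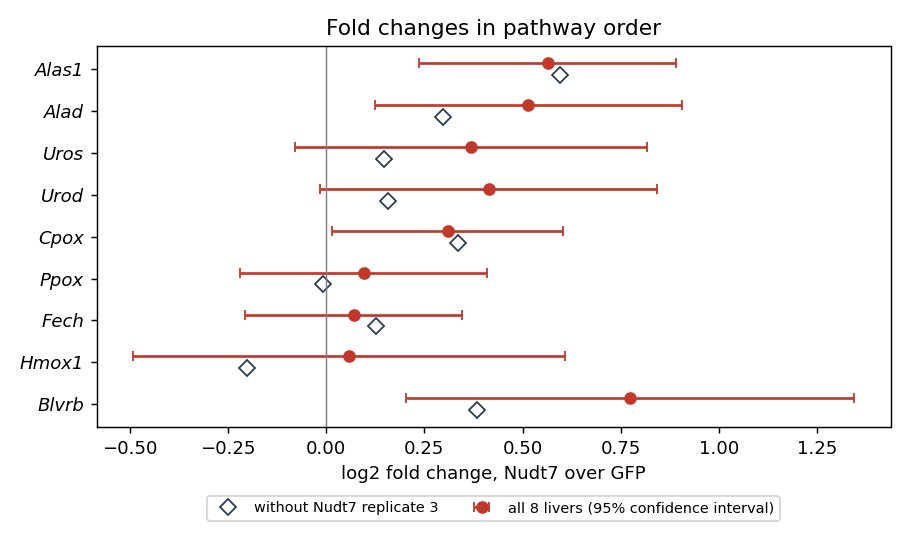
Log2 fold change, Nudt7 over GFP, of the 9 genes from all 8 livers (circles, with 95% confidence intervals from the edgeR quasi-likelihood fit) and from the 7 livers without Nudt7 replicate 3 (diamonds). Alas1 and Cpox stay near their values without that liver, at 0.60 and 0.34, whereas Blvrb lies at 0.38 and Hmox1 at −0.20.

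Alas1, the first enzyme of the pathway, had 469, 723, 540 and 522 CPM in Nudt7 livers, against 387, 368, 363 and 406 CPM in GFP livers. All Nudt7 livers lay above all GFP livers, replicate 2 highest, and the GFP livers were tightly grouped. The groups differed by a log2 fold change of 0.56 (SE 0.15, 95% interval 0.24 to 0.89), a ratio of 1.48. It did not pass over all genes in edgeR (adjusted p = 0.276), and the adjusted p was 0.0179 in DESeq2. Without Nudt7 replicate 3 the log2 fold change was 0.60 (adjusted p = 0.139), and without Nudt7 replicate 2 it was 0.42 (adjusted p = 0.395). In TPM the groups overlapped, because Nudt7 replicate 3 at 454 TPM lay below all 4 GFP livers.

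The Alas1 reads were spread over 13 annotated transcripts, and the 3 most abundant differed in kind. A 460-base model annotated as coding, ENSMUST00000215222.1, held that share of the TPM but 10.0% of the Alas1 reads. It stood at 250 ± 72.6 TPM with Nudt7 and 175 ± 13.0 TPM with GFP (SD, n = 4 livers each), and the groups overlapped. The coding transcript ENSMUST00000074082.12, of 2129 bases, was at 88.8, 131, 72.0 and 113 TPM in Nudt7 livers, against 56.9, 47.5, 47.0 and 60.0 TPM in GFP livers. The model ENSMUST00000134053.7, of 1905 bases and annotated as a processed transcript, was at 144, 232, 155 and 144 TPM in Nudt7 livers, against 116, 125, 119 and 133 TPM in GFP livers. For both of these longer models, all 4 Nudt7 livers exceeded all 4 GFP livers.

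**Figure D3:**
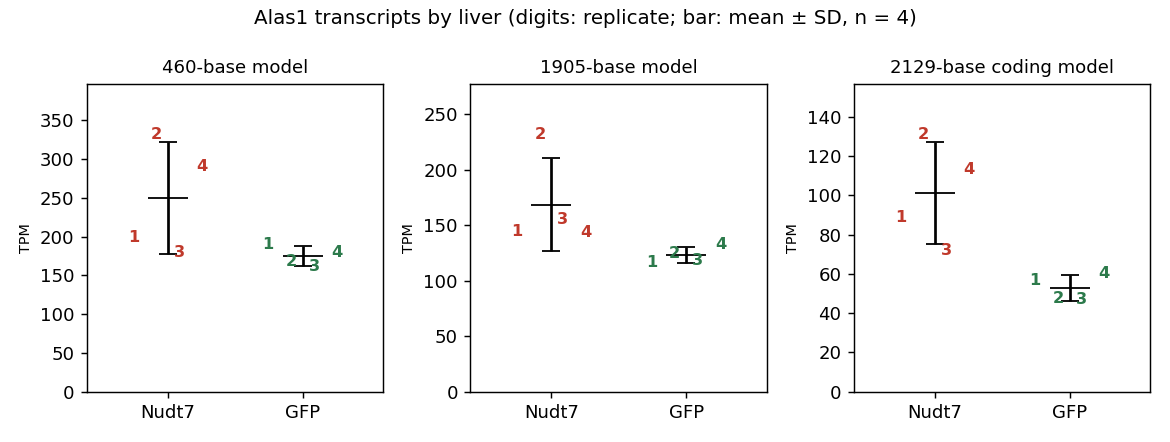
TPM of the 3 most abundant Alas1 transcript models in each Nudt7 liver (red digits, left) and GFP liver (green digits, right), where the digit is the replicate and the bar is the mean ± SD (n = 4). The 1905-base and 2129-base models do not overlap between groups, and the 460-base model does.

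Taken as a sum, Alas1 models that retain an intron were not higher with Nudt7, whereas the sum of the other models was. The 4 intron-retaining models summed to 88.1, 117, 31.7 and 64.0 TPM in Nudt7 livers, against 102, 97.1, 123 and 74.6 TPM in GFP livers. The other 9 models summed to 462, 745, 422 and 571 TPM in Nudt7 livers and to 394, 377, 368 and 396 TPM in GFP livers, without overlap. Some of these 9 had a lower mean with Nudt7 than with GFP, so the higher level was of their sum and not of each model. The share of Alas1 TPM in intron-retaining models was therefore 11.7% ± 3.95 with Nudt7 and 20.5% ± 3.74 with GFP (SD, n = 4 livers each), with Nudt7 replicate 1 (16.01%) just above GFP replicate 4 (15.9%). Over all transcripts, such models took 3.38% ± 0.526 of TPM with Nudt7 and 3.76% ± 0.358 with GFP (SD, n = 4 livers each), lowest in Nudt7 replicate 3 at 2.59%. This split was chosen after its values were seen and was not tested. Among the other genes, intron-retaining models took 28.1% ± 7.86 of Urod TPM with Nudt7 and 17.9% ± 3.82 with GFP, and 71.1% ± 18.6 of Ppox TPM with Nudt7 and 66.3% ± 9.14 with GFP (SD, n = 4 livers each).

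For the 7 genes with more than 1 transcript above 0, the share of TPM held by the most abundant transcript was compared (two-sided exact permutation test, smallest possible p = 0.0286, adjusted over 7). None passed. The difference nearest to the limit was in Uros, whose 1644-base transcript ENSMUST00000106145.9 held 40.1% ± 12.8 with Nudt7 and 23.7% ± 3.96 with GFP (SD, n = 4 livers each, exact permutation p = 0.0571, adjusted p = 0.300). The 1489-base Urod transcript ENSMUST00000030446.14 held 71.9% ± 7.86 with Nudt7 and 82.1% ± 3.82 with GFP (exact permutation p = 0.0857, adjusted p = 0.300). Hmox1 and Alad came almost wholly from 1 transcript each, at 92.9% to 100% and 87.7% to 95.9% over the 8 livers. Cpox and Fech had 1 transcript each in the files.

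The 120 bases before the annotated 5′ end of the most abundant coding transcript over 1000 bases long are printed for Alas1, Alad and Blvrb, the 3 genes whose groups did not overlap in CPM (in TPM all 3 overlapped). For Alas1 this is ENSMUST00000074082.12, which starts inside the outer bounds of the gene. They were read from RefSeq promoter windows of GRCm38.p6, in the direction of transcription. The windows run from 250 bases before a gene's start to 50 after it, and 7 of the 9 genes had entries (Alas1, Alad, Uros, Urod, Cpox, Ppox and Blvrb). Capitals mark letters searched on both strands: the palindrome of GCGCA and its reverse complement, known to be bound by the respiratory gene regulator NRF1, CACGTG, the E-box, and GGGCGG, the GC box. In Alad, 4 GC boxes form 2 overlapping pairs, and the E-box overlaps none of them.
Alas1, chr9:106247857-106247976, minus strand: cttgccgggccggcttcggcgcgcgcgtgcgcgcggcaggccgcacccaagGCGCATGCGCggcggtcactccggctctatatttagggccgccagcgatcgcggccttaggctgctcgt
Alad, chr4:62519919-62520038, minus strand: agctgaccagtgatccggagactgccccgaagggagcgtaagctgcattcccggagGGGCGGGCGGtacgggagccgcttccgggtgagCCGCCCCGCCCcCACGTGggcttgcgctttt
Blvrb, chr7:27447858-27447977, plus strand: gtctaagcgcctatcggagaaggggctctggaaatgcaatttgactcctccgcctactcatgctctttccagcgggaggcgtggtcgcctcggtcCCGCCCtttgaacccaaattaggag

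The NRF1 letters in Alas1 begin 69 bases before the start of the 2129-base coding transcript. They were in both Alas1 windows, which overlap, and in no window of the other 6 genes, whereas 0.971% of all 32851 windows held them. The E-box letters in Alad begin 19 bases before its start. They were in 4 of the 11 windows of these genes (Alad, Uros and Urod), against 7.15% of all windows, and the GC box was in 7 of the 11, against 35.7% of all. AGATAA, the GATA motif, was in 1 of the 11 windows (Cpox), against 11.2% of all. TGACGTCA (the cAMP response element), TGTTTAC (FOXO), TGACNNNGC (the antioxidant response element) and TATAAA (the TATA box) were in 0 of the 11, against 1.79%, 3.65%, 12.4% and 13.6% of all. These are matches of letters and show no binding.

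Of the cytosolic steps, Alad joins pairs of 5-aminolevulinate into porphobilinogen. It had 42.8, 37.5, 70.5 and 44.7 CPM in Nudt7 livers, against 32.7, 34.6, 36.4 and 33.2 CPM in GFP livers. All 4 Nudt7 livers exceeded all 4 GFP livers, replicate 2 narrowly and replicate 3 by far. The log2 fold change was 0.51 (SE 0.18, adjusted p in edgeR = 0.464), and 0.30 without Nudt7 replicate 3 (adjusted p = 0.360). In TPM the groups overlapped, since Nudt7 replicate 2 (48.0 TPM) lay below GFP replicate 3 (51.6 TPM).

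Uros and Urod, which close the tetrapyrrole ring and trim its side chains, overlapped between groups. Uros had 16.2, 13.5, 27.1 and 17.6 CPM in Nudt7 livers, against 16.9, 15.3, 11.9 and 13.6 CPM in GFP livers. Urod had 42.9, 40.4, 72.0 and 35.4 CPM in Nudt7 livers, against 36.4, 37.2, 36.0 and 33.4 CPM in GFP livers. In both genes Nudt7 replicate 3 was the highest liver, and the rest lay close together. The log2 fold changes were 0.37 for Uros (SE 0.20) and 0.41 for Urod (SE 0.20), and without Nudt7 replicate 3 they were 0.15 and 0.16. Uros overlaps Bccip on the opposite strand over 740 bases. The library kit kept strand, but whether strand was used in quantification is not given in the sources used here.

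Of the mitochondrial steps, Cpox had 251, 248, 248 and 278 CPM in Nudt7 livers, against 256, 194, 188 and 190 CPM in GFP livers. GFP replicate 1 was the exception that made the groups overlap; the other 3 GFP livers lay below all Nudt7 livers. This gave a log2 fold change of 0.31 (SE 0.13, 95% interval 0.02 to 0.60, adjusted p in edgeR = 0.581), 0.44 without GFP replicate 1 and 0.34 without Nudt7 replicate 3.

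Ppox had 12.5, 13.7, 17.3 and 12.8 CPM in Nudt7 livers, against 11.6, 13.0, 13.5 and 14.4 CPM in GFP livers, with overlap. Fech had 95.6, 85.6, 86.6 and 114 CPM in Nudt7 livers, against 97.9, 86.8, 86.5 and 92.5 CPM in GFP livers. Fech was thus nearly level across 7 of the livers, with Nudt7 replicate 4 above them. The 95% confidence intervals of the log2 fold changes were −0.22 to 0.41 for Ppox and −0.21 to 0.35 for Fech, so a change of up to about 0.4 log2 units is within what these livers allow. Ppox overlaps B4galt3 over 907 bases, and Cpox overlaps Gpr15 over 204 bases, each on the opposite strand, as Alas1 overlaps 4930500F10Rik over 695 bases.

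**Figure D4:**
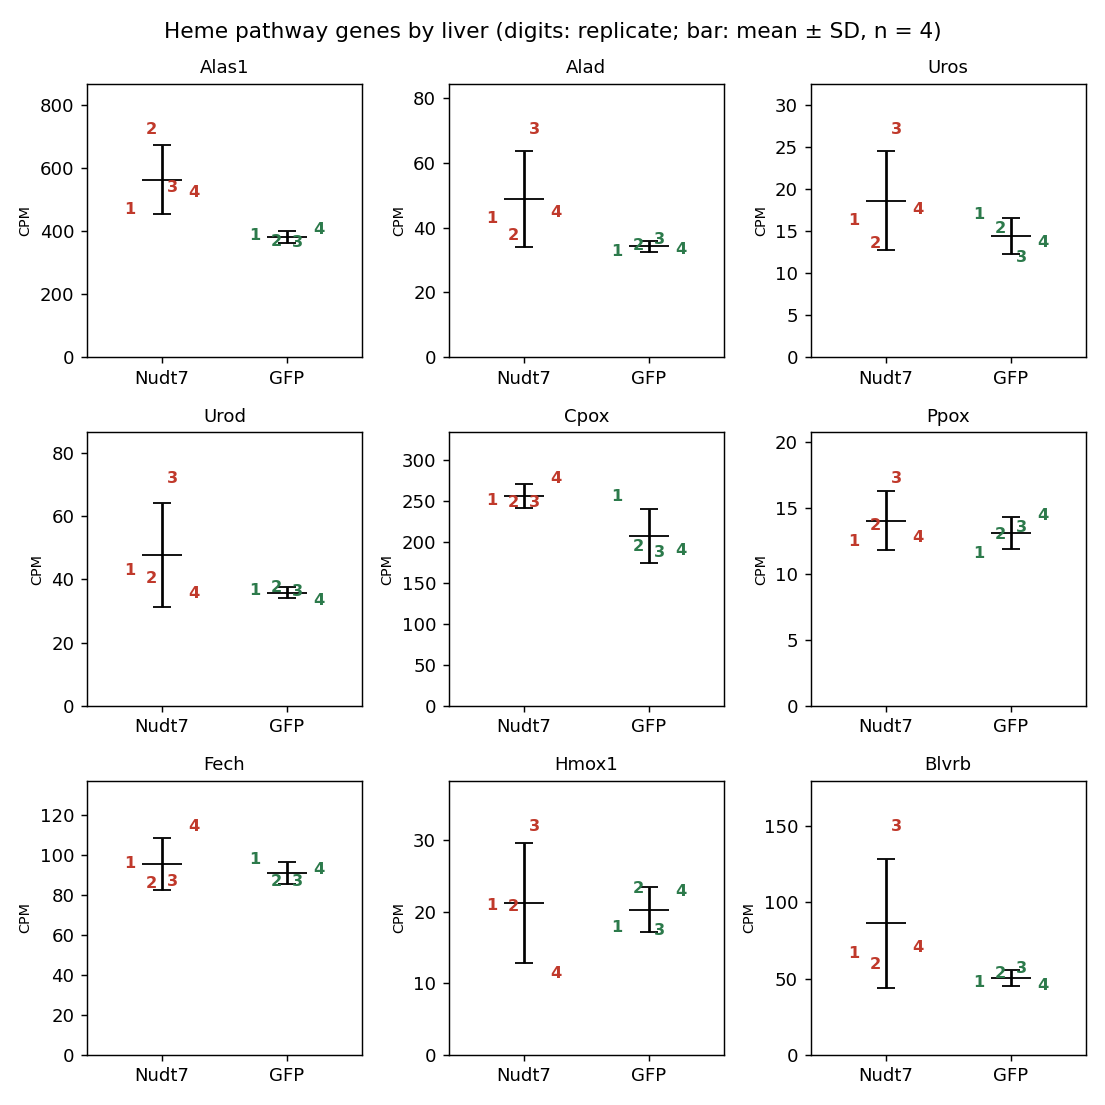
CPM of each of the 9 genes in the Nudt7 livers (red digits, left) and GFP livers (green digits, right), where the digit is the replicate and the bar is the mean ± SD (n = 4). Replicate 3 is the highest Nudt7 liver for Alad, Uros, Urod, Ppox, Hmox1 and Blvrb, but not for Alas1, Cpox or Fech.

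In breakdown, Hmox1 had 20.9, 20.8, 31.9 and 11.3 CPM in Nudt7 livers, against 17.7, 23.2, 17.4 and 22.9 CPM in GFP livers. The highest and the lowest liver were both Nudt7 livers. This gave a log2 fold change of 0.06 (SE 0.25, 95% interval −0.49 to 0.61), and it was −0.20 without Nudt7 replicate 3 and 0.27 without Nudt7 replicate 4. Hmox1 is abundant in Kupffer cells, the macrophages of liver. Summed markers of these cells (11 genes, all detected) were 283, 256, 370 and 178 CPM in Nudt7 livers, against 236, 322, 276 and 216 CPM in GFP livers. In CPM, the livers with the most and the least Hmox1 were thus also those with the highest and the lowest marker sum. Single markers varied: Csf1r and Cd163 were highest in GFP replicate 2 (45.1 and 56.9 CPM) and Adgre1 in Nudt7 replicate 1 (10.2 CPM). The other markers were highest in Nudt7 replicate 3. Cd5l, Adgre1, C1qa and Cd68 were lowest in a GFP liver, and the rest in Nudt7 replicate 4. In TPM, Hmox1 was highest in GFP replicate 2 (24.1 TPM), above Nudt7 replicate 3 (22.6 TPM). The part of Kupffer cells in the result was not tested.

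Blvrb had the largest fold change of the 9 genes and, relative to its mean, a wide spread among the Nudt7 livers. It had 66.4, 59.3, 150 and 70.4 CPM in Nudt7 livers, against 47.2, 53.5, 56.4 and 45.2 CPM in GFP livers. All 4 Nudt7 livers exceeded all 4 GFP livers, and replicate 3 was far above the other 3 Nudt7 livers. This gave a log2 fold change of 0.77 (SE 0.26, 95% interval 0.20 to 1.34, adjusted p in edgeR = 0.451), and 0.38 without Nudt7 replicate 3 (adjusted p = 0.242). In TPM the groups overlapped, since Nudt7 replicate 2 (93.5 TPM) lay below GFP replicate 3 (103 TPM).

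In Nudt7 replicate 3, some of these genes, short transcripts and red cell RNA were higher than in the other 3 Nudt7 livers. The 5 genes with read-weighted effective lengths of 895 to 1505 bases (Blvrb, Alad, Urod, Hmox1 and Uros) lay 0.76 to 1.19 log2 units above the mean of the other 3 Nudt7 livers. The short class had a median of 0.42 at a median length of 1229 bases, and its spread is not given here. Alas1, also in the short class (1655 bases), Cpox (2401 bases) and Fech (2390 bases) lay at −0.06, −0.06 and −0.17, and Ppox (2632 bases) at 0.40. Red cell precursors also make heme, and Alad, Urod and Blvrb are known to be expressed in them. Of 10 red cell markers in the files, the summed level was 502, 306, 1817 and 645 CPM in Nudt7 livers, against 415, 603, 498 and 529 CPM in GFP livers. Most of it was of the globin genes, whose copies share sequence. Klf1 was at 1.06 to 2.39 CPM in Nudt7 livers and 0.956 to 2.18 CPM in GFP livers, and Slc4a1 at 0.265 to 0.659 CPM in Nudt7 livers and 0.0869 to 0.418 CPM in GFP livers, both highest in Nudt7 replicate 3. Gata1 was below 0.1 CPM in all 8 livers. Their part in the result was not tested.

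**Figure D5:**
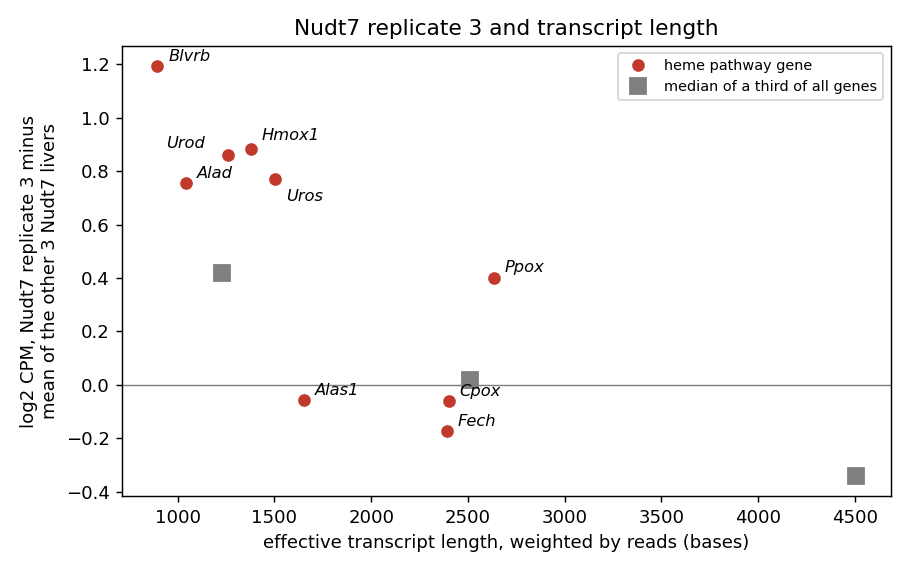
Log2 CPM in Nudt7 replicate 3 minus the mean of the other 3 Nudt7 livers, against effective transcript length weighted by reads, for the 9 genes (circles) and as medians of the 3 length classes of all tested genes (squares). Blvrb, Alad, Urod, Hmox1 and Uros lie at 0.76 to 1.19, above the short-class median of 0.42, and Alas1, Cpox and Fech lie near 0.

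Alas2, the red cell counterpart of Alas1, had 48.8, 31.0, 66.5 and 33.8 CPM in Nudt7 livers, against 24.9, 36.3, 38.1 and 26.6 CPM in GFP livers. Among 17 genes of heme synthesis partners and mitochondrial transport, edgeR, DESeq2 and limma-voom called 0, 1 was higher at an unadjusted p under 0.05 (4.25% of all genes), and the median log2 fold change was 0.15. That gene was Cox15, needed for heme A, at 32.8 ± 2.46 CPM with Nudt7 and 26.0 ± 1.61 CPM with GFP (SD, n = 4 livers each; log2 fold change 0.33, SE 0.11). Hmox2, the constitutive heme oxygenase, was at 52.0 ± 11.3 CPM with Nudt7 and 56.7 ± 7.03 CPM with GFP, and Blvra, the main biliverdin reductase, at 5.67 ± 1.78 CPM with Nudt7 and 5.68 ± 0.780 CPM with GFP (SD, n = 4 livers each).

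Among 7 genes of bilirubin disposal and heme oxygenase partners, edgeR called 0 and 1 had an unadjusted p under 0.05 in each direction, where 4.25% of all genes were higher and 4.03% lower. Abcc3, a basolateral exporter of bilirubin conjugates, had 357, 398, 480 and 492 CPM in Nudt7 livers, against 275, 325, 327 and 294 CPM in GFP livers (log2 fold change 0.50, SE 0.14, adjusted p = 0.325 in edgeR). Por, the reductase that feeds electrons to heme oxygenase and cytochromes P450, had 546, 895, 757 and 880 CPM in Nudt7 livers, against 1032, 934, 956 and 1349 CPM in GFP livers (−0.47, SE 0.19, adjusted p = 0.528). Neither pair of groups overlapped, as for 2.74% of all genes higher and 3% lower. Ugt1a1, which conjugates bilirubin, was at a log2 fold change of 0.15 (SE 0.16). DESeq2 called Abcc3, where it called 1.18% of all genes, and limma-voom called 0 of the 7.

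Of 9 genes of heme transport and scavenging, edgeR, DESeq2 and limma-voom called 0, and 2 had an unadjusted p under 0.05, both higher, where 4.25% of all genes were. These were Abcg2, a porphyrin exporter, at 79.8, 72.6, 109 and 57.6 CPM in Nudt7 livers against 53.7, 55.1, 55.8 and 54.3 CPM in GFP livers, and Slc48a1, a lysosomal heme transporter, at a log2 fold change of 0.33 (SE 0.12). The plasma scavengers Hpx (0.18, SE 0.24) and Hp (0.0066, SE 0.17) overlapped between groups.

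Of 23 tested iron genes, edgeR called 0, and 1 was higher and 2 were lower at an unadjusted p under 0.05. Over all genes these shares were 4.25% and 4.03%. The groups did not overlap for 1 higher and 2 lower iron genes, where 2.74% and 3% of all genes did so. Steap3, an endosomal ferrireductase, had 22.4, 17.8, 17.4 and 18.1 CPM in Nudt7 livers, against 10.7, 7.67, 12.3 and 7.26 CPM in GFP livers. The groups were well apart (log2 fold change 1.004, SE 0.18, adjusted p = 0.0896 in edgeR). Ncoa4, the receptor for ferritin breakdown, had 188, 228, 207 and 207 CPM in Nudt7 livers, against 311, 284, 257 and 342 CPM in GFP livers (−0.53, SE 0.13, adjusted p = 0.209). Hamp, the hormone hepcidin, was at −0.45 (SE 0.35). DESeq2 called Steap3 and Ncoa4, where it called 1.18% of all genes. The limma-voom fit called 0, and with sample weights it called Steap3, where 0.753% of all genes were called.

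Of 19 genes known to control Alas1, 15 had negative log2 fold changes and the median was −0.12, with 0 called by edgeR, DESeq2 or limma-voom and 2 lower at an unadjusted p under 0.05, where 4.03% of all genes were. Ppargc1a, the fasting coactivator that induces Alas1, had 15.6, 9.98, 13.0 and 18.6 CPM in Nudt7 livers, against 35.03, 32.9, 16.8 and 12.4 CPM in GFP livers (log2 fold change −0.75, SE 0.32, adjusted p = 0.581 in edgeR). Its GFP livers ranged widely and overlapped the Nudt7 livers. Hnf4a, a hepatocyte transcription factor, had 651, 694, 609 and 714 CPM in Nudt7 livers, against 919, 774, 844 and 1066 CPM in GFP livers (−0.43, SE 0.14, adjusted p = 0.422). Nr1d1, the heme-binding clock repressor, was at −0.09 (SE 0.33). Of 11 regulators of Hmox1 and related NRF2 targets, edgeR, DESeq2 and limma-voom called 0, the median was 0.02, and Nqo1 (0.59, SE 0.23) and Mafg (−0.31, SE 0.14) had an unadjusted p under 0.05, where 8.28% of all genes did.

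Of 20 genes of proteins that carry or serve heme, 18 had positive log2 fold changes with a median of 0.18; edgeR called 0, and 5 were higher at an unadjusted p under 0.05, where 4.25% of all genes were. Cyp2a5, a cytochrome P450 known to oxidise bilirubin, had 130, 78.0, 185 and 100 CPM in Nudt7 livers, against 29.3, 58.8, 68.6 and 52.5 CPM in GFP livers, without overlap (log2 fold change 1.24, SE 0.29, adjusted p = 0.179 in edgeR). Cat, the peroxisomal heme enzyme catalase, was at 2007 ± 271 CPM with Nudt7 and 1519 ± 125 CPM with GFP (SD, n = 4 livers each; 0.40, SE 0.15, adjusted p = 0.485). DESeq2 called Cyp2a5, where it called 1.18% of all genes, and limma-voom called 0.

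The 5 genes whose profile over the 8 livers was nearest to that of Alas1, by the mean absolute difference of centred log2 CPM among 7940 genes of at least 10 CPM, were Casp9 (0.115), Cyp4a32 (0.117), Acsl1 (0.119), Snapin (0.122) and Acot7 (0.125). Acsl1, a long-chain acyl-CoA synthetase, had 2896, 3325, 2564 and 2810 CPM in Nudt7 livers, against 2110, 2073, 2172 and 2043 CPM in GFP livers, with replicate 2 highest as for Alas1. Cyp4a32 had 81.8, 157, 111 and 79.2 CPM in Nudt7 livers, against 72.1, 69.2, 74.3 and 78.4 CPM in GFP livers, and is uncertain because Cyp4a genes are close copies. These profiles share the same libraries and are given as a description.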

How the data were processed

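Per the labels' protocols, RNA was extracted with Trizol, and 500 ng went into a stranded mRNA kit with 9 PCR cycles. FastQC, Salmon, DESeq2 and build GRCm38 are named in the submitters' processing notes, without versions or options. Per the file headers, the authors deposited estimated counts per transcript, TPM per transcript and effective lengths. Transcripts were named from GENCODE M21 (107987 of 109282), and estimated counts (rounded) and TPM were summed per gene; unnamed transcripts held 0.552% to 1.06% of reads.

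The groups (4 Nudt7, 4 GFP, from the transgene label) were compared with edgeR 4.0.16 (quasi-likelihood, robust, TMM, filterByExpr, two-sided, 13678 genes, threshold 0.05), with R 4.3.3. Alternatives used DESeq2 1.42.0, limma 3.58.1, other scalings, no filter, length corrections and each library left out. The procedure was tested on simulated data. The labels do not say whether the livers share litters or batches. The p-values set the difference between the groups against the spread between these animals, and they take each animal as independent. Library totals were 11187806 to 23640734 estimated reads. Sequences are from RefSeq GRCm38.p6.

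The genes and lists were chosen with earlier results of these data known. Named genes were the 9, Nudt7, the called members of each list or, with fewer than 2 called, the 2 of smallest p, a fixed set (1 gene not reported here, Hmox2, Blvra, Alas2, Ppargc1a, Nr1d1, Ugt1a1, Hpx, Hp, Hamp), and the 5 profiles nearest to Alas1. Hjv was taken under its older symbol Hfe2, and Ahsp was not used here.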

Additional observations from a re-analysis of the deposited data

Results flagged for a closer look

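A gene was marked when, within a group of 4, 1 liver's distance to its nearest neighbour exceeded 0.829 of the group's range. Of 110 such groups examined, 11 were marked, where chance marks about 1 in 20. Among the 9 genes, Blvrb was marked in Nudt7 replicate 3 (150 CPM, against 59.3 to 70.4 in the other 3 Nudt7 livers). Cpox was marked in Nudt7 replicate 4 (278 CPM, against 248 to 251) and in GFP replicate 1 (256 CPM, against 188 to 194).

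Nudt7 replicate 3 was also marked for Nudt7 itself (3569 CPM, against 1301 to 1599), Hmox2 (68.7 CPM, against 43.6 to 47.9), Blvra (8.32 CPM, against 4.59 to 5.08) and the stellate marker Reln (30.1 CPM, against 61.9 to 67.2). Steap3 was marked in Nudt7 replicate 1 (22.4 CPM, against 17.4 to 18.1). In GFP livers, Tat was marked in replicate 2 (3518 CPM, against 2502 to 2668), Acot7 in replicate 4 (14.1 CPM, against 9.87 to 10.3) and the summed stellate markers in replicate 1 (191 CPM, against 218 to 222).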

How the results depend on the processing

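Over 16 alternatives, 138 of 144 log2 fold changes of the 9 genes kept their direction, and 1 passed the test (Alas1 in DESeq2, so that DESeq2 called 1 of the 9). Alas1 ran from 0.42 to 0.66 (adjusted p 0.0179 to 0.711), Blvrb from 0.38 to 0.92 and Alad from 0.30 to 0.62. Hmox1 reversed to −0.038 in limma-voom, −0.18 with sample weights, −0.021 with the length trend removed and, with 1 library left out, ran from −0.20 to 0.27. Ppox ran from −0.0087 to 0.16 and Fech from −0.026 to 0.13 with 1 library left out, and Ppox was at 0.25 with an effective length offset. The cause was not tested.

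The number of genes called was 16, against 27 with no filter, 153 in DESeq2, 8 in limma-voom, 103 with sample weights, 31 with the length trend removed, 10 with an effective length offset and 2 to 16 with 1 library left out (2 without Nudt7 replicate 1 or GFP replicate 4). The ratio of Alas1 to Cpox was 4.44 over all 8 livers in TPM and 2.04 in CPM, which is not divided by length. The difference in main transcript share was −1.28 points for Ppox, and 0.919 as a share of estimated counts; with 1 library left out it ran from −8.32 to 2.20, and from −1.16 to 1.21 for Hmox1. With 3 livers against 4 the smallest exact p is 0.0571, so the tests of transcript share could not pass there. No paired analysis was possible because the labels number no replicates: the numbers 1 to 4 used here follow the order of deposit and pair no livers.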

Other observations

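Markers of other liver cells were summed in each liver, and no test was made of the sums. Endothelial markers (4 genes) summed to 217 to 255 CPM in Nudt7 livers and 232 to 252 CPM in GFP livers, with log2 fold changes of −0.11 for both Pecam1 (SE 0.12) and Stab2 (SE 0.13). Kdr was at 0.08 (SE 0.13) and Clec4g at −0.06 (SE 0.18). Stellate markers (4 genes) summed to 191 to 222 CPM in Nudt7 livers and 191 to 222 CPM in GFP livers, with Reln at −0.15 (SE 0.22) and Lrat at −0.08 (SE 0.19). Des was at 0.05 (SE 0.23) and Dcn at −0.02 (SE 0.12). Cholangiocyte markers (4 genes) summed to 17.8 to 23.0 CPM in Nudt7 livers and 11.8 to 20.7 CPM in GFP livers, with Epcam at 0.89 (SE 0.35) and Sox9 at 0.32 (SE 0.19). Krt19 was at 0.49 (SE 0.31) and Krt7 at −0.05 (SE 0.30). Epcam was low, at 0.883 to 2.22 CPM in Nudt7 livers and 0.584 to 1.17 CPM in GFP livers. Leukocyte markers (4 genes, 2 tested) summed to 7.25 to 14.4 CPM in Nudt7 livers and 6.52 to 11.5 CPM in GFP livers, with Cd3e at 0.53 (SE 0.36) and Ptprc at 0.06 (SE 0.28).

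In the red cell list, 7 of 7 tested genes had positive log2 fold changes, with Hba-a1 at 0.71 (SE 0.45). Those of Epb42 (0.104, SE 0.299) and Klf1 (0.0173, SE 0.338) were smaller than their SE. Hba-a1 had 58.8, 37.44, 218.5 and 98.58 CPM in Nudt7 livers, against 54.69, 69.96, 60.39 and 67.03 CPM in GFP livers. Each globin gene was highest in Nudt7 replicate 3, and in all 7 genes the groups overlapped. In the Kupffer cell list 7 of 11 were positive, with Cd163, the hemoglobin scavenger receptor, at −0.34 (SE 0.16) and Marco at 0.37 (SE 0.27). In the hepatocyte list 5 of 7 were negative, 3 of them at an unadjusted p under 0.05, where 4.03% of all genes were lower. Tat, a fasting and glucocorticoid-induced enzyme, had 1840, 1175, 2037 and 1170 CPM in Nudt7 livers, against 2513, 3518, 2668 and 2502 CPM in GFP livers (−0.85, SE 0.21, adjusted p = 0.225 in edgeR), and DESeq2 and limma-voom with sample weights called it. In the 7 lists edgeR and limma-voom called 0 genes. DESeq2 and limma-voom with sample weights called 1 each (Tat), where they called 1.18% and 0.753% of all genes. Epcam was the 1 gene higher at an unadjusted p under 0.05, where 4.25% of all genes were.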
